A study of Mus musculus with 4 samples.

Results

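Mediator is the large protein complex that carries signals from transcription factors bound at enhancers to RNA polymerase II at promoters. Its head and middle modules contact the polymerase, its tail receives most activators, MED14 runs through the complex as a scaffold, and a detachable module with the kinase CDK8 or its paralog CDK19 controls whether the core can engage the polymerase. In the mouse 2-cell embryo the genome is being switched on while mRNAs stored in the egg are being degraded, so the mRNA for each subunit can come from either source. The 33 genes described here were all rows of the deposited table of 18714 genes whose symbol is Med followed by a number, with or without a final l, together with Cdk8, Cdk19 and Ccnc. They comprised 12 head genes, 8 middle genes, Med14, 5 tail genes and 7 genes of the kinase module. Med27, Med28, Med29 and Med30 were counted with the head.

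The libraries came from 2-cell embryos of an outbred ICR background whose Nelfb alleles both carried a degron tag (Nelfb dTAG/dTAG), in both groups. NELFB belongs to NELF, the negative elongation factor that holds RNA polymerase II paused near the start of genes. Zygotes of homozygous parents spent 30 hours in KSOM medium containing 500 nM dTAG-13, a degrader that recruits the tagged protein to a ubiquitin ligase, or 0.01% DMSO as the vehicle, and each group had 2 libraries, each a pool of 3 embryos. Both groups carried the tag, and untagged embryos with dTAG-13 were not analysed here, so an effect of the compound itself and an effect of NELFB loss cannot be told apart. The comparison asks whether mRNAs for the parts of Mediator differ between embryos with and without the degrader, and whether its modules differ alike.

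Reads in genes numbered 38112685 and 33897568 for the dTAG-13 pools and 18923479 and 16522506 for the DMSO pools. Values are scaled reads, that is reads divided by the authors' size factor for the library. Markers of the 2-cell stage were abundant, with summed levels of 97305 to 102312 scaled reads in dTAG-13 embryos and 265977 to 267286 in DMSO embryos. Listed oocyte transcripts summed to 291196 to 333236 scaled reads in dTAG-13 embryos and to 1601240 to 2356030 in DMSO embryos. By the test used below 26 of these 35 were lower and the other 9 did not pass, and 9 of 13 tested 2-cell markers were lower. Both lists therefore moved with the groups, and their part in the results for Mediator was not tested. Of 10 cumulus and granulosa cell markers 5 had no read in any library, as had 3 of 7 sperm markers and 3 of 6 oviduct and blood markers. The cumulus and granulosa list summed to 799.9 to 1149 scaled reads in dTAG-13 embryos and 465.9 to 1278 in DMSO embryos, and the sperm list to 27.2 to 29.9 and 97.4 to 159.7. The oviduct and blood list summed to 260.1 to 340.9 scaled reads in dTAG-13 embryos and 1066 to 1179 in DMSO embryos, and 1 of its 2 tested genes was lower, the globin gene Hba-a1, with 202.2 and 154.1 scaled reads in dTAG-13 embryos and 1062 and 1041 in DMSO embryos. The part of these markers in the results was not tested either. In whole-embryo pools, a lower level in every cell and a loss of expression in some cells cannot be told apart.

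All 33 genes had reads in every library and all passed the filter on low values, a mean of at least 10 scaled reads. Mediator genes together took 0.301% and 0.338% of reads in dTAG-13 pools and 0.401% and 0.383% in DMSO pools. A gene was called higher or lower at a Benjamini-Hochberg adjusted p under 0.05 over all 15978 genes tested by limma on log2(scaled reads + 1), and fold changes are on that scale. In this comparison 5 of the 33 genes rose (Med6, Med29, Med1, Med7 and Med14) and 5 fell (Med27, Med28, Med30, Med15 and Med13), while 23 did not pass. The calls made up 15.2% of the genes in each direction, against a background of 8.94% higher and 9.79% lower among all genes tested. All calls together made up 30.3%, against 18.7%. The median log2 fold change was 0.85 over the 33 genes and -0.10 over all genes tested. The levels of the groups did not overlap for 25 of the 33 genes: both dTAG-13 libraries lay above both DMSO libraries for 16 (32.2% of all genes tested did) and below them for 9 (34.5% of all genes).

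**Figure D1:**
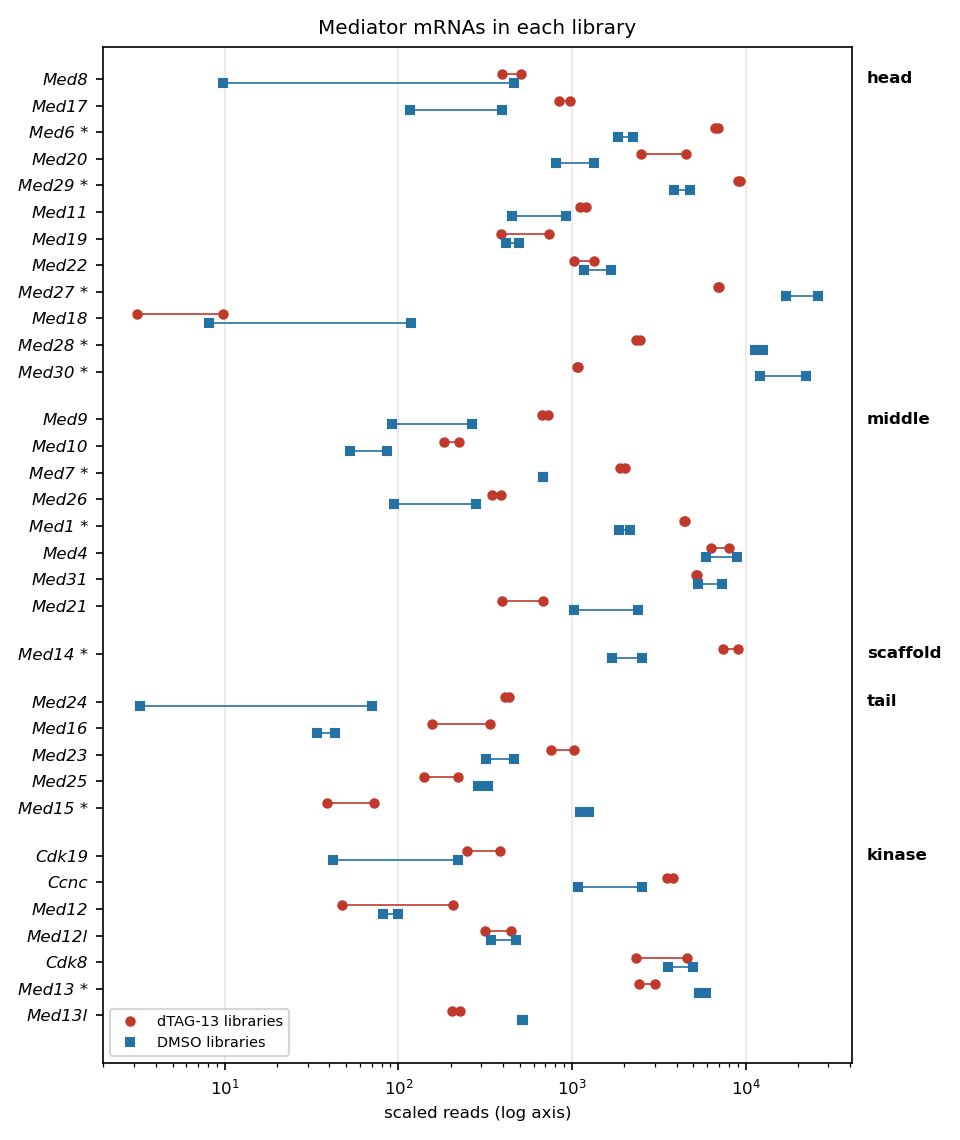
Scaled reads of the 33 Mediator genes in each library on a log axis, by module and sorted by fold change, with red circles for the 2 dTAG-13 libraries and blue squares for the 2 DMSO libraries, each pair joined by a line. Asterisks mark the 10 genes past the test; the groups stand apart most for Med30 and Med15, and the DMSO libraries stand far from each other for Med8, Med18 and Med24.

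In the head, a main contact of the polymerase, 2 genes rose and 3 fell. Med30, which encodes a subunit found in metazoan Mediator, lay at 1087 and 1073 scaled reads in dTAG-13 pools, against 12174 and 22313 in DMSO pools. Its DMSO mean was 16.0 times its dTAG-13 mean, and the log2 fold change was -3.93 ± 0.36 (SE, n = 2 per group; adjusted p = 0.0219, limma). The DMSO pools differed widely from each other, yet even the lower one lay far above both dTAG-13 libraries. Med28, another metazoan subunit, had 2469 and 2334 scaled reads in dTAG-13 embryos and 11258 and 12665 in DMSO embryos. It fell by 2.31 ± 0.23 on the log2 scale. Med27, whose protein sits at the border of head and tail, had 7027 and 6961 scaled reads in dTAG-13 embryos, against 17137 and 26125 in DMSO embryos, and fell by 1.60 ± 0.28 (adjusted p = 0.0282, limma). All 3 were among the more abundant Mediator mRNAs in DMSO pools.

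The head genes that rose were Med6 and Med29. Med6, a subunit conserved from yeast to mammals, had 6888 and 6638 scaled reads in dTAG-13 embryos and 2246 and 1831 in DMSO embryos, a log2 fold change of 1.74 ± 0.26 (adjusted p = 0.0233, limma). Med29 had 9229 and 9086 scaled reads in dTAG-13 embryos and 4766 and 3862 in DMSO embryos, a smaller difference of 1.09 ± 0.24 (adjusted p = 0.0404, limma). Pools of one treatment lay close together for both genes. Of the other 7 head genes, 5 had a positive and 2 a negative fold change. Med17, the central subunit of the head, had 974.1 and 843.8 scaled reads in dTAG-13 embryos against 392.7 and 116.9 in DMSO embryos, and Med20, part of the head's mobile jaw in yeast, had 2496 and 4506 against 1338 and 813. Neither passed over all genes (adjusted p = 0.0884 and 0.0569, limma), although the groups did not overlap. For Med20, 28.4% of the exon bases are shared with other genes, among them Gm20517 on the same strand. The largest positive value of the head, 2.67 ± 1.80 for Med8, rested on 1 library: Med8 had 397.5 and 505.6 scaled reads in dTAG-13 embryos and 465.9 and 9.74 in DMSO embryos, and its log2 fold change was -0.06 without DMSO replicate 2. Med18 had few reads in 3 of the 4 libraries, with 5 and 14 reads in dTAG-13 pools and 99 and 5 reads in DMSO pools.

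Promoters of 4 head and tail genes are shown so that genes that fell can be set beside genes that rose. RefSeq windows on GRCm38.p6 were held for 28 of the 33 genes and not for Med8, Med30, Med23, Med24 or Cdk19. For 2 genes that fell, Med28 (chr5:45519979-45520228, plus strand) and Med15 (chr16:17722948-17723197, minus strand), and 2 that rose, Med6 (chr12:81595009-81595258, minus strand) and Med29 (chr7:28392691-28392940, minus strand), the 250 bases before the RefSeq start are printed 5′ to 3′. The Med15 window lies inside the annotated gene, since longer transcripts start upstream of it, and the last 18 bases of the Med29 window fall in an annotated exon. Capitals mark matches on either strand to any of the 10 motifs searched.
Med28: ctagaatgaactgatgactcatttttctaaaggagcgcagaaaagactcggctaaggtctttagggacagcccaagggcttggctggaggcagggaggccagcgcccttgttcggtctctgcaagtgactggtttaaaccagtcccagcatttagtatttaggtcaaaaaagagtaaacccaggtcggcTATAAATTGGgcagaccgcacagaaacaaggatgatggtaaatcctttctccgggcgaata
Med15: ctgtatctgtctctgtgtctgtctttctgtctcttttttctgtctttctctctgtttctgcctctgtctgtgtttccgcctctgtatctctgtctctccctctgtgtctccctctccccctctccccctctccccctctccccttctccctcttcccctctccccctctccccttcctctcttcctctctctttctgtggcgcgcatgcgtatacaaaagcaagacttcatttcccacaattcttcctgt
Med6: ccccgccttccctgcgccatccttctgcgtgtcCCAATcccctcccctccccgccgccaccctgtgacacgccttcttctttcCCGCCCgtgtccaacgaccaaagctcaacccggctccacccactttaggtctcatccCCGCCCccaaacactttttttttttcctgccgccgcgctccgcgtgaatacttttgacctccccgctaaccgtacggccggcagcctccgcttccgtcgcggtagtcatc
Med29: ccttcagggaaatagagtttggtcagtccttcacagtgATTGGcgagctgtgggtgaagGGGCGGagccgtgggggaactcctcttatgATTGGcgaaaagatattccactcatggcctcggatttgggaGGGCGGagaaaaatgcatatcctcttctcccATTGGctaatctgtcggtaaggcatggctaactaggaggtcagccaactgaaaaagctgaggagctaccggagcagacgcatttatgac

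The motifs were GGGCGG (Sp and Klf factors), ATTGG (the CCAAT box), TATAAA (the TATA box), CCGGAAG (ETS), the NRF1 palindrome, AAGATGGC (YY1), TGACGTCA (the cAMP response element), CACGTG (the E-box), TAATCC (Obox and Otx) and TCAAGGNCA (Nr5a2). Med28 held 1 TATAAA and 1 ATTGG, which overlap in its capital run, Med15 held no match, and Med6 and Med29 each held 2 GGGCGG matches beside 1 and 3 of the CCAAT box. The Sp and Klf letters were found before 19 of the 28 genes (67.9%), against 56.8% of the 10237 promoters of genes tested. They stood before 5 of the 5 genes that rose and 1 of the 4 genes that fell and had a window. That 1 gene is not among the promoters printed. The CCAAT box stood before 4 of the 5 genes that rose and 2 of the 4 that fell. These counts are too small to compare. The CCAAT box was found in 39.3% and the TATA box in 7.14% of the 28, against 37.3% and 7.38% of all. ETS letters occurred in 17.9% against 13.1%, and the other motifs in at most 2 of the 28 each, against 1.58% (NRF1), 1.93% (YY1), 2.66% (cAMP response element), 8.23% (E-box), 5.60% (Obox and Otx) and 1.01% (Nr5a2) of all. Median G+C was 56.8% for the 28 windows and 59.2% for all. At the other end of the transcript, TTTTAT or TTTTAAT, letters of the cytoplasmic polyadenylation element, lay in the last 100 bases of 7 of the 33 genes (21.2%), against 18.8% of 13440 genes, and in 1 of the 10 genes that passed.

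In the middle module, which lies between head and tail, 2 of 8 genes rose and 0 fell by limma. Of the genes of this module 1, Med21, was lower at an unadjusted p under 0.05, and DESeq2 on recovered reads placed it lower while edgeR placed 0 lower. Med7, part of the module's hinge in yeast, had 1893 and 2008 scaled reads in dTAG-13 embryos and 680.9 and 680.1 in DMSO embryos, and rose by 1.52 ± 0.30 on the log2 scale (adjusted p = 0.0349, limma). Med1, the docking subunit for nuclear receptors, had 4388 and 4446 scaled reads in dTAG-13 embryos and 2157 and 1864 in DMSO embryos, and rose by 1.14 ± 0.26 (adjusted p = 0.0426, limma). Pairs of pools agreed closely for both genes. Med9 had the largest fold change of the module, 2.15 ± 0.64, with 728.4 and 668.1 scaled reads in dTAG-13 embryos and 91.3 and 266.2 in DMSO embryos, but did not pass (adjusted p = 0.0743, limma). Med21, the partner of MED7 in the yeast hinge, went the other way, with 392.5 and 679.3 scaled reads in dTAG-13 embryos and 1019.5 and 2412 in DMSO embryos (adjusted p = 0.103, limma). Med10 had few reads, and 92.8% of its exon bases are shared with a gene on the opposite strand, so its value of 1.57 ± 0.64 is uncertain in these unstranded libraries.

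Med4 and Med31, the most abundant middle mRNAs per kilobase, showed little difference. Med4 had 6298 and 7980 scaled reads in dTAG-13 embryos and 8914 and 5907 in DMSO embryos, and the 95% interval of its log2 fold change ran from -0.81 to 0.75. Med31 had 5184 and 5223 against 7305 and 5308, with an interval from -0.94 to 0.42. Med26, which marks the Mediator that is bound to the polymerase and recruits elongation factors, had 390.6 and 348.0 scaled reads in dTAG-13 embryos against 278.6 and 94.1 in DMSO embryos (1.18 ± 0.68, adjusted p = 0.257, limma).

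Med14 encodes the scaffold that holds head, middle and tail together. It had 7375 and 9074 scaled reads in dTAG-13 pools and 1704 and 2545 in DMSO pools, and its dTAG-13 mean was 3.87 times its DMSO mean. The log2 fold change of 1.97 ± 0.31 was the largest among the 5 genes that rose (adjusted p = 0.0252, limma). Med14 and Med12 are the 2 X-linked genes of the complex, and the 95% interval for Med12, from -2.24 to 2.53, holds the value of Med14.

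The tail, where activators dock, held the greatest spread. Med15, the subunit known to receive SREBP and SMAD factors, had 38.6 and 72.5 scaled reads in dTAG-13 pools, against 1112 and 1247 in DMSO pools. Its DMSO mean was 21.2 times its dTAG-13 mean, and it fell by 4.45 ± 0.54 on the log2 scale (adjusted p = 0.0219, limma), the largest decrease of the 33 genes. The other 4 tail genes did not pass. Med23, which receives ELK1, had 752.0 and 1020.3 scaled reads in dTAG-13 embryos and 319.4 and 462.6 in DMSO embryos. Med16 had 156.8 and 337.5 against 43.2 and 34.1, and both genes were thus higher in each dTAG-13 library than in either DMSO library. Med24 had 436.0 and 409.4 scaled reads in dTAG-13 embryos against 70.8 and 3.25 in DMSO embryos. The last of these is 2 reads, and the log2 fold change of 4.60 ± 1.45 became 2.56 when DMSO replicate 2 was left out and 6.64 when DMSO replicate 1 was. Med25, which binds ETV factors, lay below, with 220.2 and 140.2 against 287.0 and 326.3.

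In the kinase module 1 of 7 genes fell and 0 rose by limma. At an unadjusted p under 0.05 both genes for MED13 proteins were lower and 0 genes of the module higher, and edgeR and DESeq2 placed 0 of them higher at an adjusted p under 0.05. Med13, whose protein ties the kinase to the core, had 2425 and 2997 scaled reads in dTAG-13 embryos and 5396 and 5889 in DMSO embryos, and fell by 1.06 ± 0.26 on the log2 scale (adjusted p = 0.0488, limma). Its paralog Med13l had 204.0 and 225.3 scaled reads in dTAG-13 embryos and 520.0 and 517.8 in DMSO embryos, a fold change of about the same size (-1.27 ± 0.42) that did not pass (adjusted p = 0.0930, limma). Per kilobase, Med13 exceeded Med13l 10.5- and 11.7-fold in dTAG-13 pools and 9.15- and 10.03-fold in DMSO pools, so the balance of this pair was much the same in all 4.

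Cdk8, the kinase itself, had 2326 and 4621 scaled reads in dTAG-13 embryos and 4963 and 3574 in DMSO embryos, and the interval of its log2 fold change ran from -1.44 to 0.71. The dTAG-13 libraries differed from each other by more than the groups did. Cdk19 had 248.8 and 382.9 scaled reads in dTAG-13 embryos and 221.0 and 42.2 in DMSO embryos (1.66 ± 0.93, adjusted p = 0.246, limma). Per kilobase there was 18.3 and 23.6 times as much Cdk8 as Cdk19 mRNA with dTAG-13, and 43.9 and 165.4 times as much with DMSO, so Cdk8 was the main kinase mRNA in every library. Ccnc, the cyclin partner of both kinases, had 3545 and 3831 scaled reads in dTAG-13 embryos and 2542 and 1081 in DMSO embryos. Its groups did not overlap, but its fold change of 1.15 ± 0.47 did not pass (adjusted p = 0.137, limma). Med12, which activates the kinase through the cyclin, had 47.3 and 207.1 scaled reads in dTAG-13 embryos and 81.7 and 99.0 in DMSO embryos, and Med12l had 315.4 and 447.0 against 341.0 and 477.2. Med12l exceeded Med12 per kilobase in all 4 libraries, by 4.13- and 1.34-fold with dTAG-13 and by 2.58- and 2.98-fold with DMSO. Med12 had only 76 and 297 reads with dTAG-13 and 68 and 61 with DMSO. Of its exon bases 9.72% are shared with Gm21986 on the same strand, and 17.3% of those of Med12l are shared with other genes. The order of this pair is therefore uncertain.

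**Figure D2:**
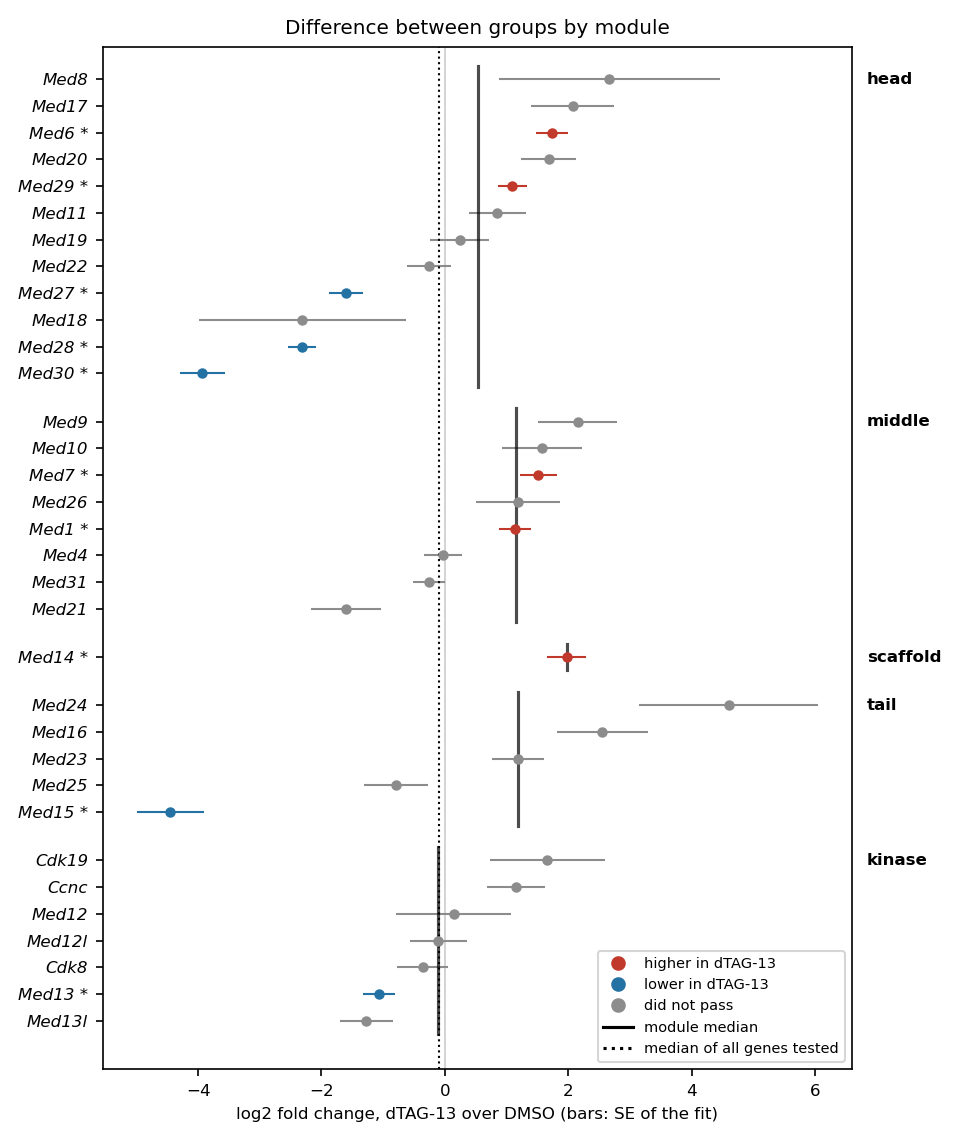
Log2 fold change of each Mediator gene, dTAG-13 over DMSO, with the standard error of the limma fit as bars, by module; red points are higher, blue points lower and grey points did not pass. Black lines give the module medians (0.55 head, 1.16 middle, 1.97 for Med14, 1.19 tail, -0.10 kinase), and the dotted line gives the median of all genes tested (-0.10).

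Set side by side, the modules had medians on the log2 scale of 0.55 (head), 1.16 (middle), 1.19 (tail) and -0.10 (kinase module), against -0.10 for all genes tested. The head ran from -3.93 to 2.67, the middle from -1.60 to 2.15, the tail from -4.45 to 4.60 and the kinase module from -1.27 to 1.66. Each of these 4 modules thus held genes on both sides of 0. The share of genes past the test was 41.7% in the head, 25.0% in the middle, 20.0% in the tail and 14.3% in the kinase module, from 12, 8, 5 and 7 genes, against 18.7% of all genes tested. No module was compared with another by a test. The head and tail values depend on Med27, Med28, Med29 and Med30 being counted with the head, and no other placement of them was tried. Apart from Med6, all head genes past the test were among these genes. The kinase median changed sign with single libraries: it was 0.15 without dTAG-13 replicate 1 and 0.14 without DMSO replicate 2, while the head median was 0.03 without DMSO replicate 2.

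Reads per kilobase of the annotated principal transcript were used to describe the mRNA make-up of the 33 genes within each library. Such shares do not depend on how libraries are scaled to one another, and protein was not measured. Head genes gave 62.1% and 57.8% of the summed reads per kilobase of the 33 genes with dTAG-13 and 66.3% and 75.4% in DMSO embryos. Middle genes gave 29.2% and 31.1% in dTAG-13 embryos, against 27.1% and 20.1% in DMSO embryos. Med14 gave 2.55% and 2.92% in dTAG-13 embryos and 0.424% and 0.522% in DMSO embryos. The 5 genes counted as tail stayed near 1% of the sum, with 0.983% and 1.13% against 0.876% and 0.803%. The kinase module gave 5.21% and 7.02% against 5.33% and 3.14%. The tail share depends on Med27, Med28, Med29 and Med30 being counted with the head. Of the sum, Med27 alone gave 13.5% and 12.4% with dTAG-13 and 23.7% and 29.7% with DMSO. The 5 tail genes kept a small share although their leading mRNA changed. Med23 exceeded Med15 per kilobase 13.9- and 9.998-fold with dTAG-13, whereas Med15 exceeded Med23 4.90- and 3.79-fold with DMSO.

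The leading mRNAs also differed between the groups among the genes counted with the head. Per kilobase, Med30 gave 4.18% and 4.12% of head reads with dTAG-13, against 31.6% and 41.9% in DMSO embryos, and Med27 gave 21.7% and 21.5% against 35.7% and 39.4%. Med29 gave 27.9% and 27.5% in dTAG-13 embryos against 9.72% and 5.70% in DMSO embryos, and Med6 gave 25.2% and 24.3% against 5.54% and 3.27%. With dTAG-13 the order of levels per kilobase began with Med29 and Med6, whose libraries did not overlap, followed by Med27 and Med4, which did. With DMSO it began with Med27 and Med30, then Med4 and Med31, and the libraries of each of these pairs overlapped. Med14 mRNA was 0.981 and 1.22 times Med30 mRNA per kilobase with dTAG-13, whereas Med30 exceeded Med14 49.4- and 60.6-fold with DMSO. Med14, Med30 and the other genes in these ratios were chosen for their differences, so the ratios are a description.

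**Figure D3:**
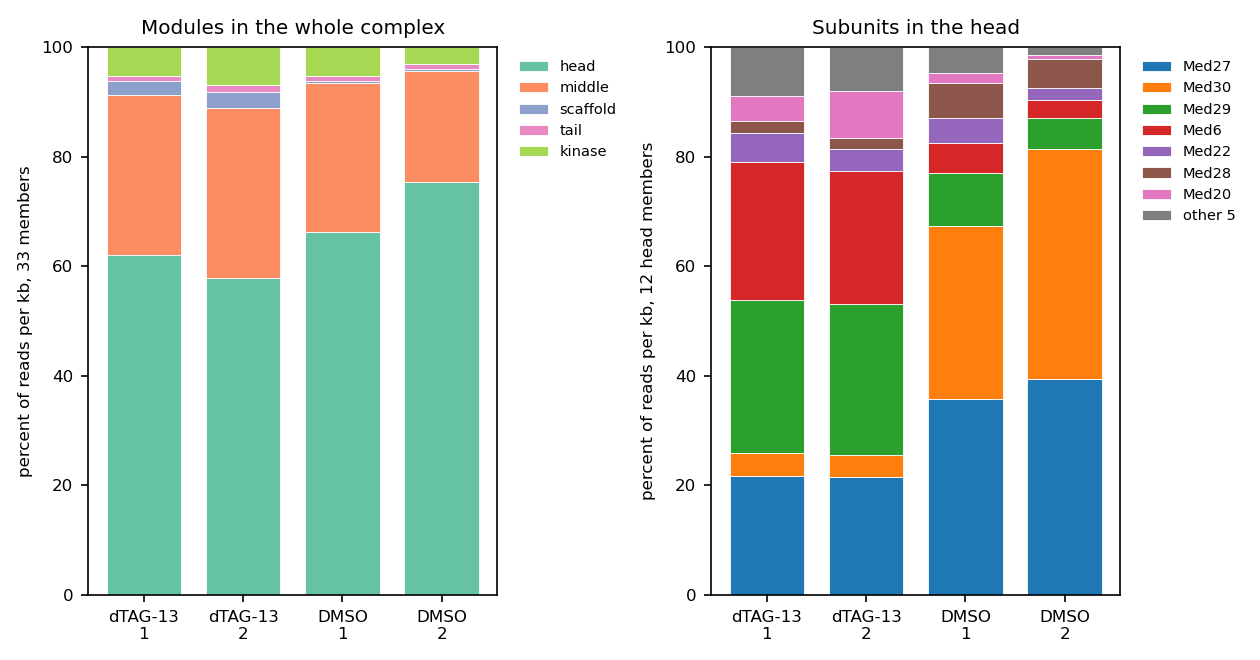
Stacked bars of the percent of length-normalised reads in each library, by module over the 33 genes on the left and by subunit over the 12 head genes on the right, with the dTAG-13 libraries left of the DMSO libraries. The head takes 57.8% to 62.1% in dTAG-13 embryos and 66.3% to 75.4% in DMSO embryos, and within it Med29 and Med6 are wider bands, and Med30 and Med27 narrower ones, in both dTAG-13 libraries.

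The calls depended on how libraries were scaled and on all 4 of them. With the median log2 level of 35 oocyte transcripts set equal between libraries, the median fold change over all genes became 1.94 (log2) and that over the Mediator genes 2.998. On that scale 20 of the 33 genes were higher (37.3% of all genes tested) and 2 lower, Med30 and Med15 (2.07% of all genes). The value of Med27 turned to 0.55, that of Med13 to 1.09 and that of Med28 to -0.16, and none of these 3 passed. On a scale that sets the median of the 33 genes equal between libraries, chosen after the data were seen, 1 gene was higher (Med6) and 4 were lower (Med15, Med27, Med28 and Med30), against 5.48% and 9.11% of all genes. When libraries were scaled to mitochondrial transcripts, the median of all genes was 0.27, and 0 of the 33 genes and 0% of all genes passed by limma. On unadjusted p-values under 0.05, 12 Mediator genes were up and 4 down, and the share of all genes at that cut was not counted. The Mediator median lay above the median of all genes by 0.95 (log2) on the authors' scale, by 0.71 after quantile normalization and by 0.36 without DMSO replicate 2; scaling by 1 factor per library shifts both medians nearly alike. A fit without 1 library leaves a lone pool in its group, and the share of all genes passing there was not counted. Only fold changes are therefore given for such fits. All 10 genes kept their direction in each of the 4 fits that left out 1 library. In these fits Med30 ranged from -4.37 to -3.49, Med15 from -4.90 to -4.00 and Med14 from 1.68 to 2.26.

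**Figure D4:**
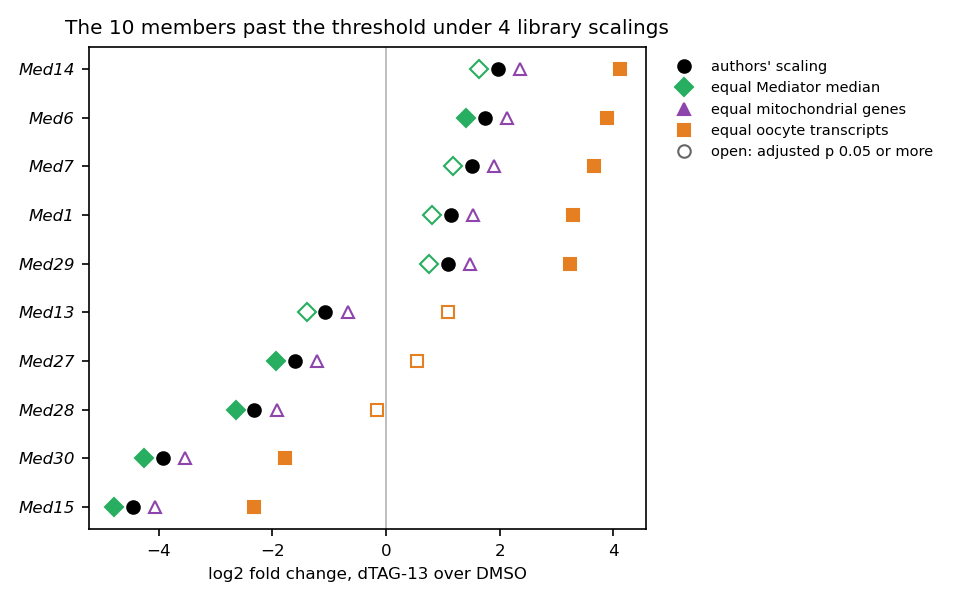
Log2 fold changes, dTAG-13 over DMSO, of the 10 Mediator genes past the test under 4 ways of scaling the libraries; filled symbols passed an adjusted p of 0.05 and open symbols did not. Med13 and Med27 lie right of 0, and Med28 close to it, under the oocyte scaling; each scaling shifts all genes alike by construction.

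In the authors' deposited table, 5 Mediator genes were past 0.05 upwards and 5 downwards, against 7.56% and 8.47% of the 16281 genes listed there. Of these, 9 passed in the same direction by limma. The exceptions were Med20, which passed in the authors' deposited table (log2 ratio 1.70, adjusted p = 0.0352), and Med7, which passed by limma and had a log2 ratio of 1.52 and an adjusted p of 0.0573 in the authors' deposited table. Med30 had an adjusted p of 8.25e-53 in the authors' deposited table, the lowest of the 33. On recovered reads, edgeR placed 3 of the 33 genes higher and 4 lower, against 6.42% and 7.17% of all genes tested, and all 7 were among the 10 genes called by limma. DESeq2 placed 10 higher and 6 lower, against 15.1% and 16.7% of all genes tested (31.8% in either direction). With a minimum mean of 50 scaled reads, 8 of 32 genes were higher and 5 lower by limma, against 17.2% and 16.8% of the 11246 genes then tested.

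Listed partners of Mediator were examined beside it, and their counts stand against 8.94% higher and 9.79% lower among all genes tested. Of 9 genes for the other kinases of the polymerase tail and their partners, 4 rose and 5 did not, and the list's median was 1.19 on the log2 scale. Ccnt1, the cyclin of the pause release kinase, had 8363 and 8570 scaled reads in dTAG-13 embryos and 2154 and 1768 in DMSO embryos (2.12 ± 0.25), and Cdk9, that kinase, had 7547 and 6830 against 3079 and 1459 (1.76 ± 0.42). Cdk7, the kinase of TFIIH, rose by 1.70 ± 0.30 and Cdk12, an elongation kinase, by 1.52 ± 0.27. These kinase mRNAs differed where Cdk8 had no detectable difference, and the contrast between them was not tested. Of 9 super elongation complex genes, which MED26 and the CDK8 module help to recruit, 2 rose (Aff1, 2.74 ± 0.28, and Ell2, 2.35 ± 0.30) and 1 fell (Mllt3, -1.81 ± 0.41), with a median of 2.52.

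Of 8 general transcription factor genes, 1 rose, 2 fell and 5 did not pass (median 0.72). Gtf2b, whose protein TFIIB joins polymerase and promoter, had 1030.1 and 1042 scaled reads in dTAG-13 embryos and 3446 and 7771 in DMSO embryos and fell by 2.32 ± 0.45, and Gtf2a2, which encodes part of TFIIA, dropped by 2.46 ± 0.32. Gtf2e2, a subunit of TFIIE, rose by 1.82 ± 0.28. Among coactivator genes that work with Mediator at enhancers, Ep300, a histone acetyltransferase, rose by 1.69 ± 0.34, with 5915 and 7365 scaled reads in dTAG-13 embryos against 2590.2 and 1604 in DMSO embryos. Crebbp (-0.21 ± 0.29), Mau2 (0.65 ± 0.62) and Nipbl did not pass. Nipbl went the other way from Ep300 by a similar size (-1.71 ± 0.47, adjusted p = 0.0615, limma). It had 582.8 and 1100 scaled reads in dTAG-13 embryos and 2031 and 3365 in DMSO embryos. Of 18 transcription factors known to bind a Mediator subunit, 15 had enough reads to test. Of these 15, 12 had negative values, as had 8254 of all 15978 genes tested, the median of the 15 was -1.40, and 1 passed: Pparg, a nuclear receptor that binds MED1, had 0 and 4.88 scaled reads in dTAG-13 embryos and 172.9 and 112.0 in DMSO embryos. Fbxw7, the ubiquitin ligase subunit that targets MED13, had 171.1 and 120.6 scaled reads in dTAG-13 embryos and 115.3 and 155.8 in DMSO embryos, so its groups overlapped.

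The 10 Mediator genes past the test lie on GRCm38 (GENCODE M21) as follows. Of those that fell, Med30 lies on chromosome 15 (52712408 to 52730564, plus strand), Med28 on chromosome 5 (45520229 to 45529276, plus), Med27 on chromosome 2 (29346819 to 29524793, plus), Med15 on chromosome 16 (17651208 to 17732891, minus) and Med13 on chromosome 11 (86267033 to 86357602, minus). Of those that rose, Med6 lies on chromosome 12 (81573557 to 81595008, minus), Med29 on chromosome 7 (28386146 to 28392708, minus), Med1 and Med7 on chromosome 11 (98152154 to 98193293, minus, and 46436925 to 46442721, plus) and Med14 on chromosome X (12675369 to 12762073, minus). Exons of other annotated genes covered 0% of the exon bases of Med30, Med28, Med6, Med1 and Med14, and 1.92% for Med15, 4.38% for Med27, 5.00% for Med29, 7.38% for Med13 and 21.2% for Med7. Among genes that did not pass, the highest shares after Med10 were 28.4% for Med20, 26.3% for Med31, 17.3% for Med12l and 15.5% for Med21.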

How the data were processed

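RNA was measured in 4 libraries of 2-cell mouse embryos, 2 per group, made, per the labels' protocols, with the unstranded SMART-seq v4 kit on polyA RNA. The deposited signal values (scaled reads) are whole read numbers per gene over the authors' size factor for each library. Per the submitters' processing notes, bcl2fastq, Picard, HTSeq and DESeq were used with build mm10; the aligner is not given in the sources used here. Every value was a whole multiple of its column's smallest value above 0 (100% within 1e-04 reads), so reads were recovered. The authors' deposited table also holds a log2 ratio of treated over DMSO, with raw and adjusted p-values per gene, without errors.

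Genes averaging 10 or more scaled reads were compared on log2(value + 1) with limma 3.58.1 (lmFit, eBayes with trend, two-sided, R 4.3.3), with p adjusted over all genes tested; the script was tested on simulated data. Alternatives used edgeR 4.0.16 and DESeq2 1.42.0 on recovered reads, other filters, pseudocounts and scalings, and each library left out. The labels do not say that pools of a group differed in parents or day, and p-values then measure only pool-to-pool spread, possibly technical. A count of 0 allows up to 3 reads, or 1.87 and 2.09 scaled reads with dTAG-13 and 3.60 and 4.87 with DMSO, for counting error only. Gene lengths and overlaps are from GENCODE M21 (33 of 33 genes matched). The members, modules and lists were chosen with earlier results of these data known. Every gene was to be accounted for, with values per library for genes past the test, Med14, Ccnc, the paralog pairs and the largest change of each module; others given per library were chosen after their values were seen. The coactivator list is given in part, and the rest is not reported here.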

Additional observations from a re-analysis of the deposited data

How the results depend on the processing

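Across 15 alternatives, 0 of the 10 genes that passed ever passed in the opposite direction. The number higher, 5, was 3 with edgeR and with quantile normalization, 10 with DESeq2, 8 at a mean of at least 50, 9 with the replicate block, 20 under the oocyte scaling, 1 under the within-complex scaling and 0 under the mitochondrial scaling or without a variance trend. The number lower, 5, was 2 under the oocyte scaling and 0 under the mitochondrial scaling or without a trend. On unadjusted p-values under 0.05, 12 were up and 4 down under the mitochondrial scaling by limma and 6 and 5 without a trend. Without a trend the smallest adjusted p of a member was 0.0501 (limma). The share of all genes tested was not counted for these unadjusted p-values, for quantile normalization or without a trend. Those counts therefore cannot be set against other genes. Omitting 1 library leaves a lone pool assumed to vary like the other group, so counts of genes past the test are not given for those fits. With the block, 6 were lower, and all genes tested gave 11.6% higher and 11.5% lower. Deviations from the group means had a correlation of -0.014 between pools of the same replicate number. With 2 pools per group these deviations mirror each other, so the value cannot show whether pools were paired.

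The median log2 fold change of the members was 2.998 under the oocyte, 1.24 under the mitochondrial and 0.52 under the within-complex scaling, and 0.28 to 1.08 when libraries were omitted singly. Under the oocyte, mitochondrial and within-complex scalings the head median was 2.69, 0.93 and 0.22, the middle 3.30, 1.55 and 0.83, the tail 3.33, 1.57 and 0.86, and the kinase module 2.04, 0.28 and -0.43. With 1 library left out the head ranged from 0.027 to 0.81, the middle from 0.72 to 1.23, and the kinase module from -0.86 to 0.15. Counting MED14 with the tail gave a tail median of 1.58.

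Single genes that changed sign under the oocyte scaling were Med22 (1.90), Med4 (2.12), Med31 (1.89), Med12l (2.04), Cdk8 (1.79), Med25 (1.34), Med13 (1.09), Med13l (0.87), Med27 (0.55) and Med21 (0.55). Under the mitochondrial scaling they were Med22 (0.13), Med4 (0.35), Med31 (0.13), Cdk8 (0.027) and Med12l (0.28), and under the within-complex scaling Med19 (-0.091) and Med12 (-0.19). With 1 library left out Med8 ranged from -0.055 to 5.39, Med19 from -0.21 to 0.69, Med22 from -0.51 to 0.00083, Med4 from -0.33 to 0.26, Cdk8 from -0.86 to 0.13, Med12 from -0.91 to 1.19 and Med12l from -0.35 to 0.15. Causes of these changes were not tested. Med24, Med8 and Med18 had 2 to 6 reads in at least 1 library, so their values there carry a large counting error.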
